A study of Mus musculus with 4 samples.

Results

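The TCRβ clones described here carry a hydrophobic residue at both positions 6 and 7 of the CDR3. The CDR3 is the loop of the β chain that is built from the ends of the V, D and J segments and from bases added between them. It was counted from its first cysteine as residue 1 to its last phenylalanine. The hydrophobic residues were phenylalanine, isoleucine, leucine, methionine, valine, tryptophan and tyrosine. A clone is a row of the deposited tables, so rows that share V, J and CDR3 nucleotides count as separate clones. A clone was in-frame when its CDR3 had no frameshift and no stop codon. Members were chosen by sequence alone, and 3577 of the 364420 in-frame clones qualified, among 382531 TCRβ rows in all.

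Total CD4 T cells came from the spleens of wild type (WT) and Tet2/3 DKO mice of 25 days average age, with 2 libraries per genotype labelled as biological replicates. Tet2/3 DKO mice were Tet2-/- Tet3 flx/flx CD4Cre: Tet2 was absent from the germline, and Tet3 was deleted by CD4-Cre from the double positive thymocyte stage, so Tet2 was also absent from every other cell of these animals. CD25 expressing cells and iNKT cells, which bind the aGalCer loaded CD1d tetramer, had been excluded by sorting in both genotypes. The tables hold receptor sequences only, so the cell type could not be checked against marker genes. In-frame reads numbered 352203 and 438257 for WT, and 395406 and 552002 for Tet2/3 DKO.

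The TCRβ chain touches the peptide on the MHC molecule mainly through its CDR3. Hydrophobic residues at the tip of this loop have been used as a sequence proxy for reactivity to self peptides, because receptors that bind self strongly are removed or diverted during selection in the thymus. The proxy was computed from the sequence of 1 chain, and reactivity was not measured. TET2 and TET3 are the dioxygenases that oxidize 5-methylcytosine, and mice that lack both in T cells were compared with WT mice here for the share, size and build of these clones. The label of a hydrophobic centre held for only some of the members. In 32.5% of them the CDR3 had 11 to 13 residues, so that its middle fell on residue 6 or 7. In 64.1% it had 14 residues or more and the pair lay wholly or partly before the middle. They are therefore called hydrophobic 6-7 clones below.

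The sequences shown are the 2 D segments, since TRBD2 can encode tryptophan or leucine and TRBD1 none of the hydrophobic set, and the largest hydrophobic 6-7 clone of each library. The D segments were read from untrimmed clones of the tables. They lie on chr6 (GRCm38.p6, RefSeq), TRBD1 at chr6:41533201-41533212 and TRBD2 at chr6:41542163-41542176. In the clones, codons 6 and 7 are in capitals.
TRBD1: gggacagggggc
TRBD2: gggactgggggggc
Largest clone of WT replicate 1, TRBV30 with TRBJ2-1: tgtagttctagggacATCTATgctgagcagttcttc
its peptide: cssrdIYaeqff
Largest clone of WT replicate 2, TRBV20 with TRBJ2-5: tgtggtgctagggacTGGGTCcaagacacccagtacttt
its peptide: cgardWVqdtqyf
Largest clone of Tet2/3 DKO replicate 1, TRBV29 with TRBJ2-4: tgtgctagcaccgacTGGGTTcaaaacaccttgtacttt
its peptide: castdWVqntlyf
Largest clone of Tet2/3 DKO replicate 2, TRBV13-2 with TRBJ2-3: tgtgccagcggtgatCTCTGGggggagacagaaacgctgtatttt
its peptide: casgdLWgetetlyf

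Hydrophobic 6-7 clones made up about 1 in 100 of the in-frame clones in both genotypes. WT replicate 1 held 756 of them (0.982% of its clones, 95% Wilson interval 0.915 to 1.05) and WT replicate 2 held 980 (1.02%, 0.961 to 1.09). Tet2/3 DKO replicate 1 held 921 (0.996%, 0.934 to 1.06) and Tet2/3 DKO replicate 2 held 920 (0.928%, 0.870 to 0.990). The ranges of the genotypes overlapped. The mean was 1.00% ± 0.0290 (SD, n = 2) in WT and 0.962% ± 0.0479 (SD, n = 2) in Tet2/3 DKO, and an exact two-sided permutation test over the 6 assignments of the labels gave p = 0.667. Without Tet2/3 DKO replicate 2 the difference was -0.00656 percentage points in place of -0.0405. With 2 libraries per genotype this test cannot give less than 0.333, and it measures only the spread between these libraries. Reads were counted without molecular identifiers, so the intervals cover counting error of rows or reads only, not of molecules or cells. Those of the read shares below treat each read as independent although reads came in clones, and are too narrow.

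Their share of the reads was lower than their share of the clones in both WT libraries and in Tet2/3 DKO replicate 1. It was 0.876% (0.845 to 0.907) of the in-frame reads of WT replicate 1, 0.871% (0.844 to 0.899) of WT replicate 2, 0.898% (0.869 to 0.927) in Tet2/3 DKO replicate 1 and 1.02% (0.989 to 1.04) in Tet2/3 DKO replicate 2. Both Tet2/3 DKO libraries stood above both WT libraries, by 0.0834 percentage points in the means, with p = 0.333 in the exact permutation test, the smallest possible, and p = 0.810 after Benjamini-Hochberg adjustment over 17 single-value comparisons. Without Tet2/3 DKO replicate 2 the difference was 0.0244 percentage points.

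**Figure D1:**
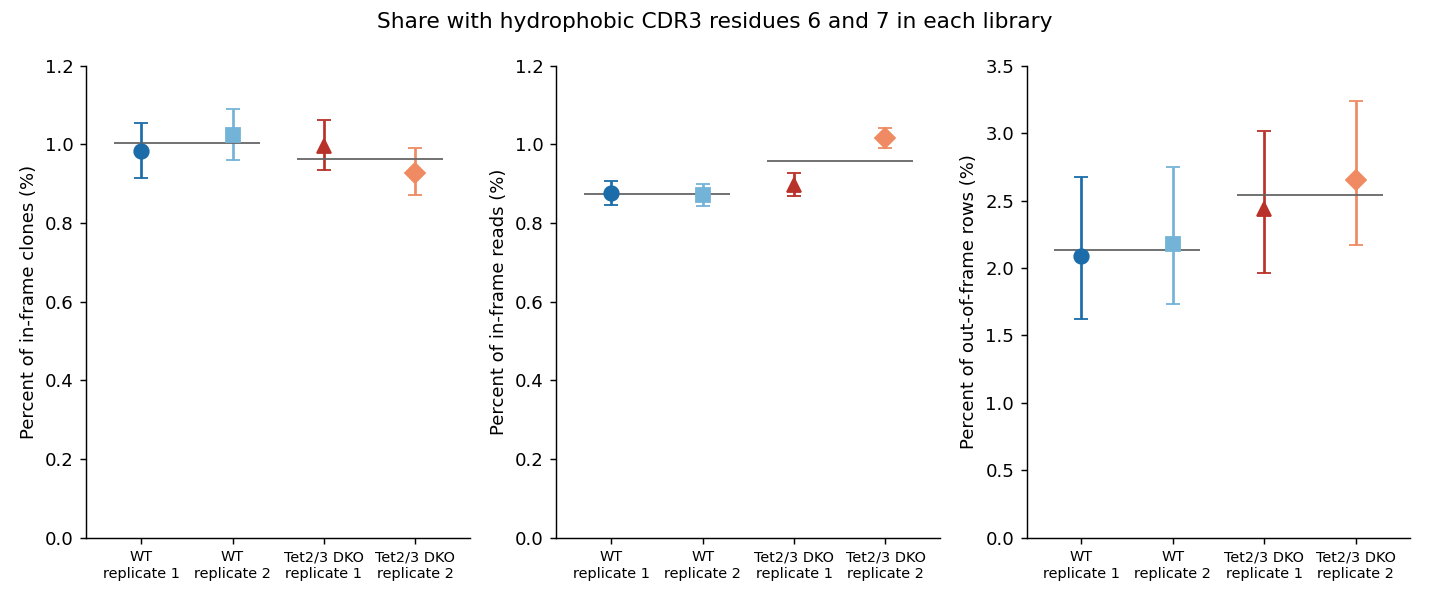
Percent of in-frame clones (left), in-frame reads (middle) and out-of-frame rows (right) with hydrophobic residues 6 and 7, for each of the 4 libraries. Points are libraries with 95% Wilson intervals and grey lines are genotype means. The clone shares of the genotypes overlap, between 0.928% and 1.02%, and the out-of-frame shares all lie above 2%.

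Large hydrophobic 6-7 clones were seen mainly in 1 library, which also held the highest number of large clones of other kinds. The largest such clone held 53 reads in WT replicate 1, 39 in WT replicate 2 and 29 in Tet2/3 DKO replicate 1, and 658 in Tet2/3 DKO replicate 2. Over all rows with the same V, J and CDR3 nucleotides these sequences held 64, 43, 29 and 661 reads. In Tet2/3 DKO replicate 2 the 3 largest held 658, 466 and 301 reads, which was 25.4% of all hydrophobic 6-7 reads, against 2.03% to 3.89% in the other libraries. The largest of the 3 ranked 24th among all in-frame clones of the library with 0.119% of the reads. None of the 10 largest in-frame clones of any library was a hydrophobic 6-7 clone. The clone of 466 reads combined TRBV13-2 with TRBJ2-4, and that of 301 reads combined TRBV16 with TRBJ2-3.
Clone of 466 reads, Tet2/3 DKO replicate 2: casgdLFqntlyf
Clone of 301 reads, Tet2/3 DKO replicate 2: casslVWggaetlyf

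None of these 3 nucleotide sequences was found in another library with the same V and J segments. The clone of 301 reads shared its peptide, V and J with 5 reads of Tet2/3 DKO replicate 1. Hydrophobic 6-7 clones with more than 50 reads numbered 8 in Tet2/3 DKO replicate 2 (0.870% of them), 1 in WT replicate 1 (0.132%) and 0 in the other libraries. Other in-frame clones of this size were also most numerous in Tet2/3 DKO replicate 2, with 485 (0.494% of its other clones), against 228 (0.299%) and 224 (0.236%) in the WT libraries and 108 (0.118%) in Tet2/3 DKO replicate 1. The 10 largest clones of Tet2/3 DKO replicate 2, none of them hydrophobic at 6 and 7, held 35373 reads, against 4623 to 8966 in the other libraries. Of the other leading clones, the next 2 of WT replicate 1 (43 and 24 reads) both joined TRBV13-2 to TRBJ2-7, without a D call.
WT replicate 1, 43 reads: casgdIYeqyf
WT replicate 1, 24 reads: casgdWYeqyf
WT replicate 2, 24 reads: casgdVLgeyeqyf
WT replicate 2, 22 reads: cgargLYeeqyf
Tet2/3 DKO replicate 1, 22 reads: casslMLgentlyf
Tet2/3 DKO replicate 1, 21 reads: cassdIYeqyf

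Mean reads per hydrophobic 6-7 clone were 4.08 and 3.89 (WT), and 3.85 and 6.09 (Tet2/3 DKO), against 4.58, 4.58, 4.28 and 5.56 for other in-frame clones. The log2 ratio of these means was -0.17 and -0.23 in WT, -0.15 in Tet2/3 DKO replicate 1 and 0.13 in Tet2/3 DKO replicate 2. The genotypes differed by 0.19 on this log2 scale (exact permutation p = 0.333), and by 0.05 without Tet2/3 DKO replicate 2. With the 2 middle residues of the CDR3 in place of residues 6 and 7 this difference turned to -0.11. The median was 3 reads for hydrophobic 6-7 clones and for other clones in all 4 libraries. Between 23.7% and 27.3% of the hydrophobic 6-7 clones had a single read, and between 25.6% and 26.4% of the others.

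**Figure D2:**
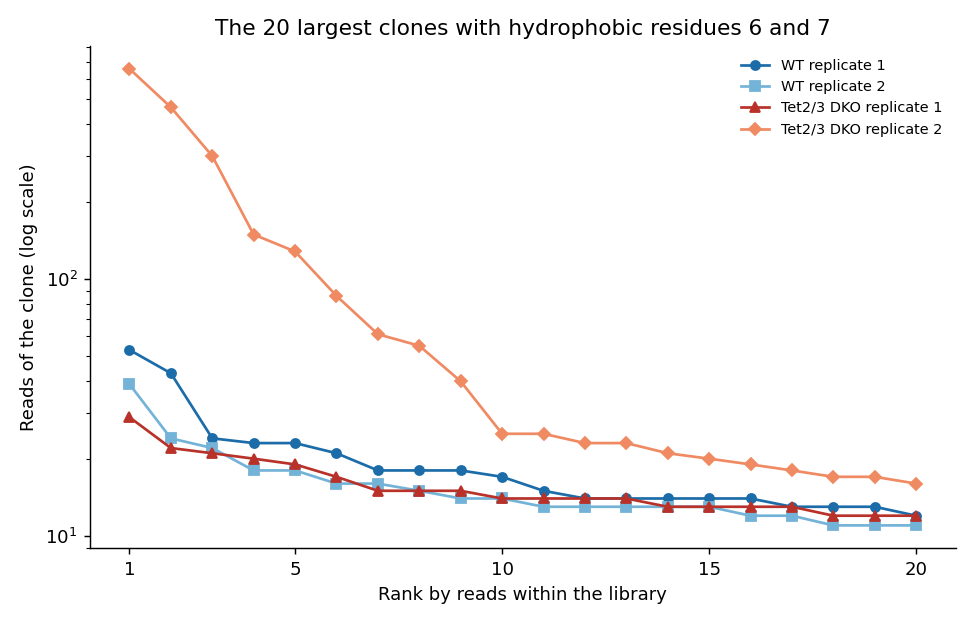
Reads of the 20 largest hydrophobic 6-7 clones of each library, by rank, on a log scale. Tet2/3 DKO replicate 2 starts at 658 reads and holds 8 clones above 50 reads, while the other 3 libraries start between 29 and 53 reads.

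Out-of-frame rearrangements make no receptor chain, and rows with an out-of-frame CDR3 were present in the same libraries. An inserted or deleted base in a read of an in-frame clone would also give such a row. Each row was read in the frame of its V segment, and those with a stop codon at residue 6 or 7 were left out, which kept 12920 of 13446 rows. Among them 304 had hydrophobic residues at both positions: 60 of 2875 and 70 of 3210 in WT, 81 of 3327 and 93 of 3508 in Tet2/3 DKO. The WT shares were 2.09% (1.62 to 2.68) and 2.18% (1.73 to 2.75). The Tet2/3 DKO shares were 2.43% (1.96 to 3.02) and 2.65% (2.17 to 3.24). In all 4 libraries the in-frame share was under the interval of the out-of-frame share. The log2 ratio of in-frame to out-of-frame share was -1.09 in both WT libraries, -1.29 in Tet2/3 DKO replicate 1 and -1.51 in Tet2/3 DKO replicate 2. It was negative in 4 of 4 libraries (mean -1.25 ± 0.20 SD, n = 4). An exact two-sided sign-flip permutation test gave the smallest p that 4 libraries allow, which is above 0.05.

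Of the out-of-frame rows, 14.2% to 18.4% lay 1 inserted or deleted CDR3 base from an in-frame clone of the same library, V and J with at least as many reads. Without these rows, a choice made after seeing the data, the log2 ratio was -1.24 and -1.19 for WT, and -1.26 and -1.63 for Tet2/3 DKO. Errors of more than 1 base were not separated.

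Both Tet2/3 DKO libraries had a lower ratio than both WT libraries, by 0.31 on the log2 scale (exact permutation p = 0.333, adjusted p = 0.810). Out-of-frame rows read the J segment in another frame than in-frame clones do, and tyrosine at residue 7, which many in-frame clones take from J, was 3.74 to 6.89 times as frequent in-frame as out-of-frame. The ratio was therefore also taken among rows with no J base in codons 6 and 7, a choice made after seeing the data. It was then -0.98 and -0.91 in the WT libraries, and -0.96 and -1.17 in those of Tet2/3 DKO. All 4 libraries stayed below 0 and the genotypes overlapped, with a difference of -0.12. Out-of-frame rows were smaller, with 3.05 to 3.57 reads on average against 4.28 to 5.57 for in-frame clones, and the part of this difference in the ratio was not tested.

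Along the CDR3, neighbouring hydrophobic residues were less frequent in-frame than out-of-frame at each of the 6 pairs of positions from 4 and 5 to 9 and 10 in all 4 libraries. At residues 6 and 7 the in-frame share was 0.350 to 0.470 of the out-of-frame share, at residues 7 and 8 it was 0.339 to 0.444, and at residues 8 and 9 it was 0.219 to 0.282. Rows with J bases in the codons were set aside for residues 6 and 7 only. The ratios at the other positions therefore also hold the difference in J frame, and the positions cannot be ranked by them. The in-frame pair at 6 and 7 was also rarer than its residues taken singly would give. Residue 6 was hydrophobic in 11.7% to 12.2% of in-frame clones and residue 7 in 14.9% to 15.3%, and both together occurred at 0.536 to 0.554 of the product of these shares. Out-of-frame the pair occurred at 0.711 to 0.947 of the product. Clones with a single hydrophobic residue at 6 or 7 made up 25.22% and 25.43% of the WT in-frame clones, above the 25.04% and 24.66% of Tet2/3 DKO. These ranges did not overlap (difference -0.475 percentage points, exact permutation p = 0.333, adjusted p = 0.810).

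**Figure D3:**
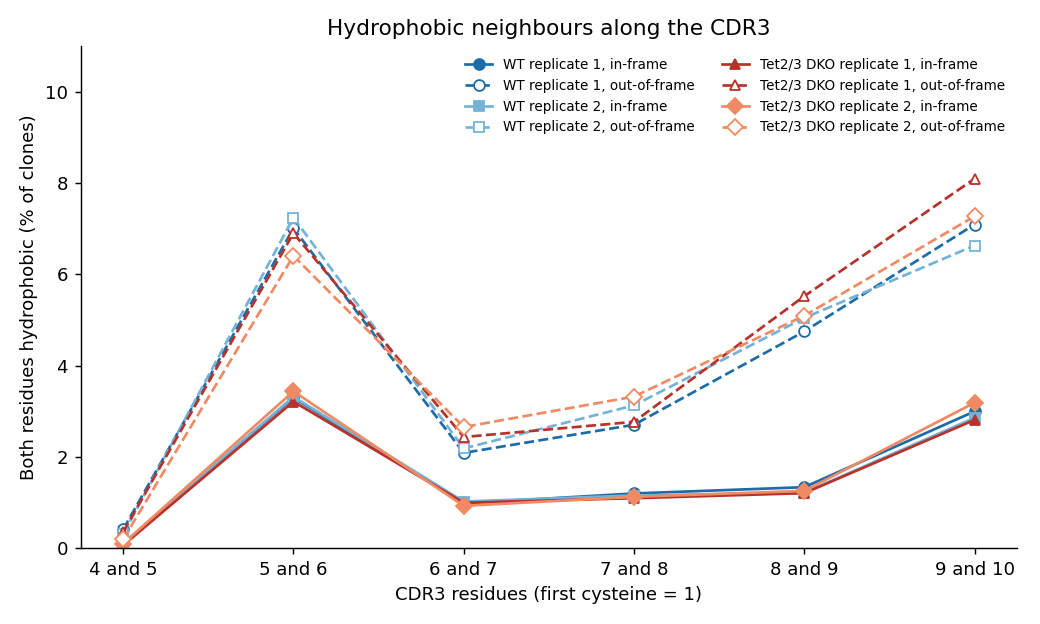
Percent of clones in which both neighbouring residues are hydrophobic, by position along the CDR3 (first cysteine = 1), for in-frame clones (filled symbols, solid lines) and out-of-frame rows read in the V frame (open symbols, dashed lines) of each library. At residues 6 and 7 the in-frame values lie between 0.928% and 1.02% and the out-of-frame values between 2.09% and 2.65%.

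Most members had a TRBD2 call and a TRBJ2 segment, and many had no D call. TRBD2 was called in 52.9% and 53.7% of them in WT, 52.4% in Tet2/3 DKO replicate 1 and 56.4% in Tet2/3 DKO replicate 2, against 29.0% to 31.2% of other in-frame clones. TRBD1 was called in 4.78% to 5.87% of them and in 41.2% to 43.5% of the others. No D was called in 37.7% to 42.8% of the members and 27.5% to 27.8% of the others. TRBJ2 segments were used by 87.4% to 91.2% of the members and 70.5% to 72.9% of the others. Of the 6 bases of codons 6 and 7, 33.3% to 35.98% came from D, against 53.5% to 54.7% in other clones. Between 44.6% and 47.1% came from no segment (27.3% to 28.6% in others). These were added bases, palindromic ones at segment ends included, or stretches too short to assign. The mean number of inserted bases, palindromic ones included, was 5.08 and 5.12 in WT, against 4.84 and 4.79 in Tet2/3 DKO. The genotypes did not overlap in this number and differed by -0.285 bases (exact permutation p = 0.333, adjusted p = 0.810). Other in-frame clones had 3.997 and 4.01 inserted bases in WT, and 3.96 and 3.78 in Tet2/3 DKO.

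The reading frame of D sorted the clones further. TRBD2 can be read as glycine-threonine-glycine-glycine, as aspartate-tryptophan-glycine-glycine or as glycine-leucine-glycine-glycine, and TRBD1 in its 3 frames holds no hydrophobic residue of the set. In the tryptophan frame of TRBD2, hydrophobic 6-7 clones were 2.88% and 3.35% of in-frame clones in WT and 3.08% and 3.31% in Tet2/3 DKO. In the leucine frame they were 1.93% and 1.80% (WT), and 2.11% and 1.97% (Tet2/3 DKO). In the threonine frame of TRBD2 they were 0.0855% to 0.206%, and over the 3 frames of TRBD1 0.0591% to 0.225%. Among out-of-frame rows the tryptophan frame gave 22 of 361 and 18 of 450 for WT and 19 of 402 and 28 of 426 for Tet2/3 DKO, and the leucine frame gave 1.45% to 3.76% of its rows. The tryptophan and leucine frames supplied 1193 and 685 of the 3577 members.

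**Figure D4:**
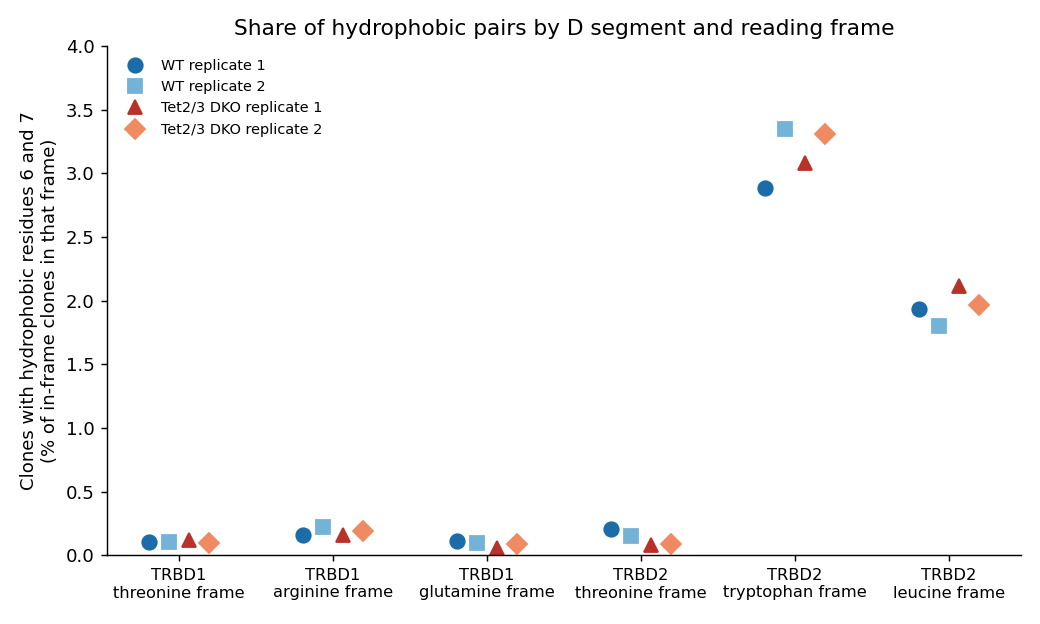
Hydrophobic 6-7 clones as percent of in-frame clones with each D segment in each reading frame, named by the residue that differs between frames, for the 4 libraries. The tryptophan and leucine frames of TRBD2 lie between 1.80% and 3.35%, and the other frames are at or below 0.225%.

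Few residues made up most of the 2 positions. Valine and leucine led at residue 6, in 31.1% to 34.9% and 23.4% to 26.4% of hydrophobic 6-7 clones. Tryptophan and leucine led at residue 7, in 31.5% to 34.02% and 23.2% to 25.7%. In CDR3s of at least 11 residues, the next residue, 8, was glycine in 48.9% of the members and 31.7% of other clones (means of 4 libraries). Glutamate there was also more frequent, at 11.2% against 5.04%. Residue 5 was aspartate in 29.1% of the members of this length and in 15.3% of the others.

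Of the 49 possible hydrophobic pairs 46 were seen, 38 of them in all 4 libraries. Phenylalanine-methionine, isoleucine-methionine and methionine-methionine were found in 0 of 364420 in-frame clones, which allows a share of up to 0.000823%. The most frequent pair was valine-tryptophan, in 0.104% and 0.143% of in-frame clones in WT and 0.147% and 0.144% in Tet2/3 DKO. TRBD2 was called in 87.7% of its clones. Valine-leucine followed with 0.112% and 0.101% in the WT libraries, and 0.108% and 0.0958% in those of Tet2/3 DKO. Tyrosine-tryptophan made up 0.0883% and 0.0793% in WT, against 0.0865% and 0.0888% in Tet2/3 DKO. It was the pair with most out-of-frame rows, 52, and its in-frame share was 0.213 of its out-of-frame share over all libraries. Leucine-leucine (0.0677%), tryptophan-valine (0.0565%) and leucine-tryptophan (0.0544%, means of 4 libraries) came next. These 6 pairs made up 51.4% of the members. Their in-frame share ran from 0.213 (tyrosine-tryptophan) to 0.998 (leucine-tryptophan) of their out-of-frame share. The next 3 pairs, leucine-tyrosine, valine-tyrosine and isoleucine-tyrosine, all ended in tyrosine. Their in-frame share was 3.33, 2.61 and 4.86 times their out-of-frame share, which rested on 2, 2 and 1 rows. Leucine-tyrosine had a D call of TRBD2 in 7.98% of its clones and took a mean of 3.43 of its 6 bases from J.

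Tet2/3 DKO and WT were compared for each pair of residues on reads, in 1 edgeR quasi-likelihood fit over the 358 pairs with at least 10 reads. Over all pairs 0.559% were called (2 of 358), which were alanine-serine and tryptophan-glycine, named after their values were seen, and 0 of the 44 hydrophobic pairs tested was called (2 of the 46 had fewer reads), at a threshold of 0.05 after Benjamini-Hochberg adjustment. Over all pairs 0 were called with TMM factors, with DESeq2, with each clone counted once or without the 10 largest clones. Alanine-serine held 0.386% and 0.336% of the reads in WT, 0.358% in Tet2/3 DKO replicate 1 and 2.03% in Tet2/3 DKO replicate 2. The smallest adjusted p of a hydrophobic pair in the main fit was 0.124. At an unadjusted p under 0.05 edgeR gave 5 of the 44, beside 21 of all 358 pairs (5.87%), and DESeq2 gave 7, beside 18 of all pairs (5.03%). DESeq2 called 0 hydrophobic pairs after adjustment. The 5 of edgeR, looked at after their values were seen, were valine-methionine, leucine-phenylalanine, tryptophan-leucine and tyrosine-tyrosine on the higher side and isoleucine-leucine on the lower side. Leucine-phenylalanine reads were raised in Tet2/3 DKO replicate 2 only (0.0951%, replicate 1 0.0154%), whose clone of 466 reads has this pair. Its clones were fewer in Tet2/3 DKO, at 0.0162% and 0.0171% against 0.0221% and 0.0230% in WT. Tryptophan-leucine was also raised in that library only (0.0545%, replicate 1 0.0205%). Valine-methionine there was 92 reads in 2 clones. In a fit without Tet2/3 DKO replicate 1, 5 hydrophobic pairs were called after adjustment, leucine-tryptophan among them, beside 21 of the 347 pairs tested (6.05%). The median log2 ratio of Tet2/3 DKO over WT was -0.11 over the hydrophobic pairs and -0.07 over all pairs tested. In percent of clones, 19 of the 44 hydrophobic pairs did not overlap between the genotypes (43.2%), beside 37.7% of all 358 pairs, 9 of them higher and 10 lower in Tet2/3 DKO.

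Among the leading pairs valine-tryptophan reads were 0.0960% and 0.107% of in-frame reads in WT and 0.132% and 0.179% in Tet2/3 DKO, which is 0.61 ± 0.33 as a log2 ratio (SE, edgeR adjusted p = 0.839). The ratio was 0.37 without Tet2/3 DKO replicate 2. Leucine-tryptophan held 0.0531% and 0.0614% of the reads in WT, 0.0402% in Tet2/3 DKO replicate 1 and 0.148% in Tet2/3 DKO replicate 2, whose largest hydrophobic 6-7 clone has this pair. Its log2 ratio was 0.72 ± 0.42 (SE, edgeR adjusted p = 0.863). This ratio turned to -0.51 without Tet2/3 DKO replicate 2, and to -0.51 with each clone counted once. Both Tet2/3 DKO libraries were below both WT libraries in clones of this pair, at 0.0497% and 0.0403% against 0.0584% and 0.0689%. Valine-leucine, tyrosine-tryptophan, leucine-leucine and tryptophan-valine had log2 ratios of -0.23, 0.09, -0.15 and -0.34, none past the threshold. Leaving out 1 library moved each of these 4 by over 1.5 times. Valine-leucine was at -0.45 without Tet2/3 DKO replicate 1 and -0.033 without Tet2/3 DKO replicate 2. Tryptophan-valine was at -0.58 without WT replicate 1 and -0.048 without WT replicate 2. Tyrosine-tryptophan turned in sign, to -0.11 without WT replicate 2 and -0.060 without Tet2/3 DKO replicate 2. Leucine-leucine turned to 0.17 without Tet2/3 DKO replicate 2.

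V segments supply the start of the CDR3, usually up to residue 5, and their clones differed in how often a hydrophobic pair followed. Among the 19 segments with at least 500 in-frame clones in every library, the share was highest for TRBV12-1 (chr6:41113567-41114067). It was 1.60% and 1.62% (WT), and 2.18% and 1.53% (Tet2/3 DKO). TRBV17, TRBV3 and TRBV29 followed with means of 1.53% ± 0.255, 1.22% ± 0.151 and 1.203% ± 0.291 (SD, n = 4). The lowest was TRBV15 (chr6:41141211-41141658), at 0.455% and 0.505% in the WT libraries, and 0.365% and 0.455% in those of Tet2/3 DKO. TRBV5, TRBV19 and TRBV12-2 stood just above it at 0.615% ± 0.0873, 0.631% ± 0.181 and 0.633% ± 0.318 (SD, n = 4). TRBV12-1 lay above each of these 4 segments in every library. Each segment of this order overlapped the next in the range of its 4 libraries.

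TRBV12-1 and TRBV12-2 end in the same germline sequence within the CDR3, so the deposited sequences are set side by side with that of TRBV15. The untrimmed V part of the CDR3 was read from clones without V trimming.
TRBV12-1: tgtgccagctctctc
TRBV12-2: tgtgccagctctctc
TRBV15: tgtgccagcagtttagc

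With this identical end, hydrophobic 6-7 clones made up 1.73% ± 0.303 of TRBV12-1 clones and 0.633% ± 0.318 of TRBV12-2 clones (SD, n = 4), and TRBV12-1 was higher in 4 of 4 libraries. These 2 segments are related, and at most 0.00247% of rows of a library had equally good V hits. In TRBV12-2 the share was 0.505% and 0.354% in WT, against 0.585% and 1.09% in Tet2/3 DKO, with 4, 4, 6 and 28 clones. It was 1 of 2 segments among the 19 whose ranges did not overlap between genotypes, 10.5% of the segments compared. The other was TRBV15, where WT replicate 1 and Tet2/3 DKO replicate 2 both had 0.455%.

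The 4 segments TRBV1, TRBV12-1, TRBV12-2 and TRBV15 encode the β chains stained by the antibodies to Vβ2, Vβ5.1-5.2 and Vβ12. They were picked from the study's larger antibody panel because its text singled them out by genotype in spleen, so they are no independent choice. An antibody that the text singled out in thymic cells only was left aside. Hydrophobic 6-7 clones with TRBV1 were 0.834% and 0.653% of TRBV1 clones in WT and 1.34% and 0.608% in Tet2/3 DKO, overlapping between the genotypes. In reads the log2 ratio of Tet2/3 DKO over WT was 0.64 ± 0.51 for TRBV1, 0.55 ± 0.32 for TRBV12-1, 1.59 ± 0.73 for TRBV12-2 and 0.04 ± 0.30 for TRBV15 (SE). The edgeR adjusted p was 0.640, 0.620, 0.530 and 0.961. The ratio of TRBV12-2 rested on 1 library: its reads were 0.00426% and 0.00365% of in-frame reads for WT, 0.00531% for Tet2/3 DKO replicate 1 and 0.0183% for Tet2/3 DKO replicate 2, and without the latter the ratio was 0.43 (adjusted p = 0.979). That of TRBV1 turned to -0.098 without Tet2/3 DKO replicate 1, and that of TRBV15 to -0.040 without WT replicate 2 and to -0.017 without Tet2/3 DKO replicate 2. In the fit over V segments split into hydrophobic 6-7 and other clones, 0% of the 46 features were called, and none of the 22 features of hydrophobic 6-7 clones. At an unadjusted p under 0.05 edgeR gave 0 of the 22, beside 1 of the 46 features (2.17%), and DESeq2 gave 1, beside 2 of the 46 (4.35%). Without Tet2/3 DKO replicate 1, 4 of the 22 were called, TRBV12-2 among them, beside 11 of the 46 (23.9%). Without WT replicate 2, 2 of the 22 were called, which were the only calls among the 46 (4.35%). Read shares were open to single clones here too, since the 2 largest hydrophobic 6-7 clones of Tet2/3 DKO replicate 2 used TRBV13-2.

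**Figure D5:**
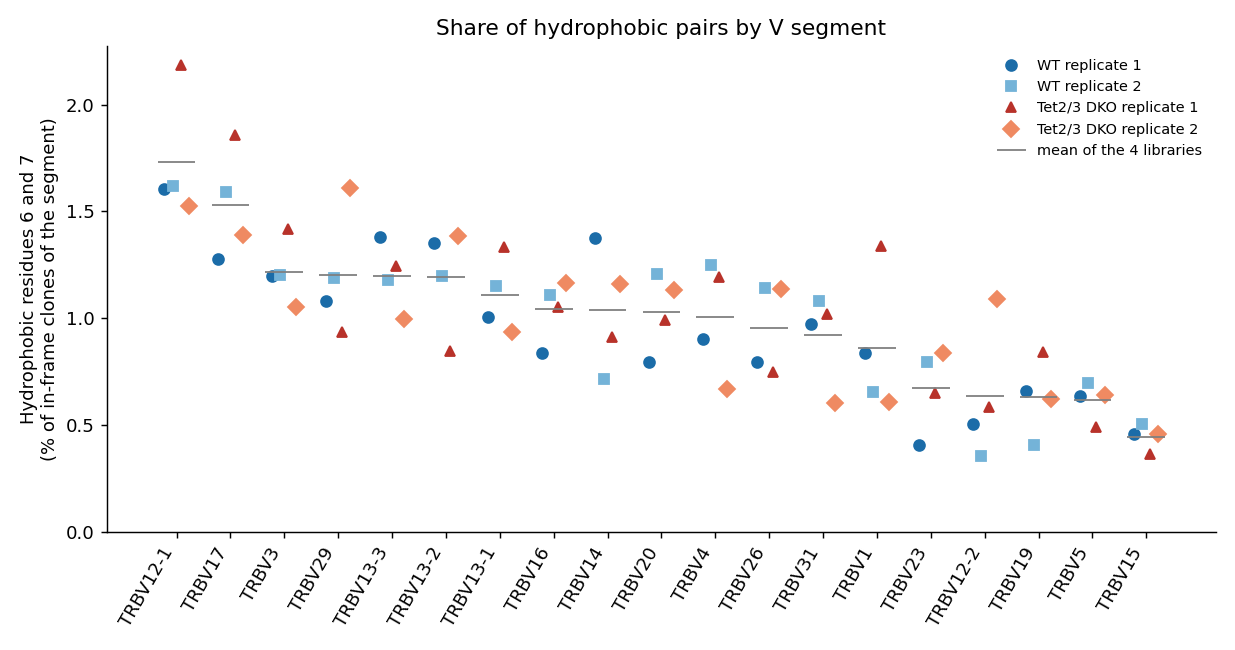
Hydrophobic 6-7 clones as percent of the in-frame clones of each V segment, for the 19 segments with at least 500 in-frame clones in every library, ordered by the mean of the 4 libraries (grey line). TRBV12-1 is highest with a mean of 1.73% and TRBV15 lowest with 0.445%.

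The 2 clusters of J segments differed when each was taken as a whole, while single segments crossed between them. TRBJ2 clones were hydrophobic at 6 and 7 in 1.22% ± 0.0374 and TRBJ1 clones in 0.365% ± 0.0787 (SD, n = 4), without overlap between the clusters. The TRBJ2 segments lie downstream of TRBD2, and TRBD2 cannot join to TRBJ1 by deletion. The highest shares were those of TRBJ2-1, with 1.51% and 1.52% (WT), and 1.53% and 1.32% (Tet2/3 DKO), and of TRBJ2-7, with 1.37% and 1.53% in the WT libraries, and 1.53% and 1.34% in those of Tet2/3 DKO. These did not differ beyond their spread. The lowest were TRBJ1-1 with 0.264% and 0.307% in WT, against 0.247% and 0.184% in Tet2/3 DKO, and TRBJ1-2 with 0.204% and 0.132% (WT), and 0.0681% and 0.108% (Tet2/3 DKO). The other 8 segments had means from 0.295% to 1.197%. Among them TRBJ1-6 (0.777% ± 0.127) had a higher mean than TRBJ2-2 (0.663% ± 0.157, SD, n = 4), with overlapping ranges. The range of TRBJ1-4, 0.453% to 0.978%, overlapped those of TRBJ2-2, TRBJ2-3 and TRBJ2-4. Both low segments were among the 4 of 12 (33.3%) whose ranges did not overlap between genotypes. On reads, 0% of the 24 features of the J segment fit were called by edgeR and none of its 12 features of hydrophobic 6-7 clones, of which 0 had an unadjusted p under 0.05 in edgeR and 2 in DESeq2, beside 1 (4.17%) and 3 (12.5%) of the 24. The smallest edgeR adjusted p of the 12 was 0.593. Without Tet2/3 DKO replicate 1, 2 of the 12 were called, beside 5 of the 24 (20.8%).

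The share varied with CDR3 length. The members had 7 to 18 residues. Their mean was 13.8 and 13.7 residues in WT and 13.6 and 13.8 in Tet2/3 DKO, against 13.7, 13.7, 13.7 and 13.6 for other in-frame clones. The genotypes differed by 0.00338 residues in the mean (exact permutation p = 1). Of the 109 CDR3s of 7 residues 52.8% were members (33.3% to 66.7%), and of the 234 of 8 residues 20.95% (11.1% to 29.2%, means and ranges of 4 libraries). In a CDR3 of 7 residues, residue 7 is the phenylalanine that ends the loop, so membership there turned on residue 6. In 84.7% of the 111 members of 7 or 8 residues all 6 bases of codons 6 and 7 came from J, so that the residues were encoded by J alone. Of the 2887 in-frame clones of 10 residues 0 were members, which allows a share of up to 0.104%. The share was 2.22% ± 0.287 at 11 residues and lowest of the longer loops at 13 residues, 0.536% ± 0.0192. It was higher again at 15 residues, 1.12% ± 0.0382, and at 16 residues, 1.80% ± 0.333 (SD, n = 4).

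Hydrophobic 6-7 clones were mostly private to a library. A clonotype was defined here by its V, J and CDR3 peptide. Of 2874 hydrophobic 6-7 clonotypes 4.73% were found in at least 2 libraries, beside 12.8% of the 238753 other clonotypes. Between any 2 libraries 26 to 36 hydrophobic 6-7 clonotypes were shared, 3.36% to 4.96% of those of either library. WT replicates 1 and 2 shared 30 and the Tet2/3 DKO replicates shared 36. Each library enters 3 of these comparisons, and they were left untested.

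There were 5 clonotypes present in all 4 libraries, and 4 of them had a TRBD2 call and tryptophan at residue 7. None of the 5 had a nucleotide sequence that occurred in all 4 libraries, so each was encoded by 2 or 3 sequences. The most abundant joined TRBV13-2 to TRBJ2-7 with 44 and 13 reads in WT and 4 and 4 in Tet2/3 DKO.
TRBV13-2 with TRBJ2-7: casgdIYeqyf
TRBV31 with TRBJ2-3: cawslVWgsaetlyf
TRBV5 with TRBJ2-7: cassqVWggyeqyf
TRBV13-1 with TRBJ2-3: cassdVWggaetlyf
TRBV12-1 with TRBJ2-1: casspYWggyaeqff

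The other 4 held 3 to 13 reads in each WT library and 2 to 7 in each Tet2/3 DKO library. Those of TRBV13-1 and TRBV12-1 had 3 distinct nucleotide sequences each, the most of the 5. A difference between genotypes in these clonotypes was not tested.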

How the data were processed

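TCRβ sequences of splenic CD4 T cells from 2 WT and 2 Tet2/3 DKO libraries were analysed. The authors amplified TCR transcripts from total RNA with a 5' RACE kit (SMARTer), sequenced them on a MiSeq, trimmed with fastp 0.21.0 and built clones in MiXCR; the labels name the build mm10 and bcl2fastq 2.20.0. The deposited tables give per clone a count of reads and its fraction of the reads of the chain. The deposited fraction equalled the share of counts and was used only as a check. The TCRα tables were not used here.

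In each library, 0.798% to 1.16% of rows had no covered CDR3 and were left out, and 94.9% to 95.4% of rows were in-frame. The first listed V, D and J hit was used without its allele. Origins of bases came from the deposited reference points. The members, lists and named items were chosen with earlier results of these data known. Named were the 6 most and 3 least frequent hydrophobic pairs, and the 2 highest and 2 lowest J segments. Of the V segments, the 4 with the highest and the 4 with the lowest share were named (at least 500 in-frame clones in every library). TRBV1, TRBV12-1, TRBV12-2 and TRBV15 were added as targets of 3 antibodies that the study's text singled out from its panel for spleen. Also named were the 3 largest members per library and members found in all libraries. Hydrophobic items past the threshold were to be named too, but there were none.

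Single values were compared by exact permutation tests over 6 label assignments, adjusted over 17 comparisons. Residue pairs, V segments and J segments were tested on counts with edgeR 4.0.16 (quasi-likelihood, total in-frame reads as library size, at least 10 reads in total), with DESeq2 1.42.0 as an alternative. Standard errors are the log2 ratio over the root of its F value. Tested on simulated data, 83.9% of pairs, 77.0% of V features and 97.5% of J features changed 4-fold were recovered (358, 46 and 24 features), and 0.423%, 1.10% and 0.682% of unchanged ones were called. The simulated counts shared a single dispersion, the median of the main fit, and held no single large clones like those of Tet2/3 DKO replicate 2. These rates therefore do not cover jumps from single clones. Python 3.11.15, R 4.3.3, numpy 2.4.6, pandas 2.3.3 and scipy 1.17.1 were used.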

Additional observations from a re-analysis of the deposited data

How the results depend on the processing

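The TCRβ depth of 352203 to 552002 in-frame reads and 2 libraries per genotype limit these results: an exact permutation test cannot pass 0.05 here, so its p-values say nothing about stability. The in-frame to out-of-frame ratio stayed negative in every alternative run (mean log2 -1.40 to -0.56, the latter with alanine counted as hydrophobic), and was -0.76 among TRBJ2 clones with a TRBD2 call. Tet2/3 DKO minus WT turned in sign in these cases, and the cause was not tested. The difference in share of clones was 0.0658 percentage points among TRBJ2 clones with a TRBD2 call, a choice made after seeing the data. With the 2 middle residues of the CDR3 in place of residues 6 and 7, the difference in share of reads was -0.0747 percentage points and in log2 clone size ratio -0.11. The difference in mean CDR3 length was -0.00946 residues with at least 2 reads per clone, -0.0227 with clones merged by V, J and CDR3 nucleotides, -0.00574 for CDR3s of 12 to 15 residues and -0.0392 with alanine added, and ranged from -0.0904 to 0.0972 when each library was left out in turn. Leaving out each library in turn gave -0.0743 to -0.00656 percentage points for the share of clones, 0.0244 to 0.142 for the share of reads, 0.05 to 0.33 for the log2 clone size ratio, and -0.42 to -0.20 for the log2 in-frame to out-of-frame ratio.

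The number of residue pairs called was 2 in the main setting, and 0 with TMM factors, with DESeq2, with each clone counted once and without the 10 largest clones. With no filter on reads it was 6 of the 374 pairs seen, 2 of them among the 46 hydrophobic pairs. Leaving out each library in turn gave 1 to 21 pairs called, 0 to 5 of them hydrophobic, 0 to 11 V features, 0 to 4 of them hydrophobic, and 0 to 5 J features, 0 to 2 of them hydrophobic. The highest counts came without Tet2/3 DKO replicate 1. In each such fit the lone library of a genotype was assumed to vary like the libraries of the other.

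Some log2 ratios of reads turned in sign with each clone counted once: leucine-leucine to 0.047, leucine-tryptophan to -0.51, TRBV29 to -0.027 and TRBJ2-7 to 0.054. With each library left out in turn, the log2 ratio ranged from 0.37 to 0.81 for valine-tryptophan, -0.45 to -0.033 for valine-leucine, -0.58 to -0.048 for tryptophan-valine, 0.43 to 2.21 for TRBV12-2, -0.11 to 0.33 for tyrosine-tryptophan, -0.55 to 0.17 for leucine-leucine, -0.51 to 1.37 for leucine-tryptophan, -0.30 to 0.86 for TRBV17, -0.17 to 0.31 for TRBV3, -0.040 to 0.11 for TRBV15, -0.098 to 1.14 for TRBV1, -0.31 to 0.015 for TRBJ2-1 and -0.24 to 0.055 for TRBJ2-7. Leucine-tryptophan (1.37) and TRBV12-2 (2.21) passed the edgeR threshold without Tet2/3 DKO replicate 1. The replicate numbers did not pair the libraries: the deviations of same-numbered libraries correlated at 0.0284 over pairs, 0.0411 over V and -0.399 over J features. With the replicate block 2 pairs, 0 V features and 0 J features were called, none of them hydrophobic.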
